A study of Mus musculus with 6 samples.

Results

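The collagen genes of mouse gastrocnemius were compared between muscle without the transcription factor IRF4 and muscle with an excess of it. Members were every gene symbol of the form Col, digits, a, digits with at least 30 expected counts summed over the 6 RNA-seq libraries. Of 44 such symbols 36 met this minimum, out of 24054 genes in the table. Col4a6 and Col8a2 lay just inside the minimum with sums of 34 and 54 counts, and Col9a2 and Col17a1 lay just outside it with 26 and 25. Col2a1, Col6a4, Col6a5, Col9a3, Col10a1 and Col25a1 were the other symbols left out. The members comprised 10 fibrillar, 8 basement membrane, 6 network and 7 fibril-associated collagens and 5 others.

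Both groups were male C57BL/6 mice with 3 libraries each. In MI4KO mice a floxed Irf4 gene was deleted by Cre expressed from the Myl1 promoter, which acts in skeletal muscle fibres. In MI4OE mice the same Myl1-Cre driver removed a stop cassette ahead of an Irf4 transgene at the Rosa26 locus. Both therefore carried Cre. Muscle of wild-type or flox mice was not analysed here, and a difference can come from either genotype. The labels name a high fat diet for every library, but the study describes its phenotyped mice on chow, so the diet behind these values is uncertain. The labels used here give no age and do not say whether a library came from 1 animal. The p-values below measure the spread between these libraries.

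Collagens are secreted proteins built from chains that wind around each other in long helices of repeated glycine triplets. Fibrillar collagens form the load-bearing fibres of the perimysium and endomysium, type IV collagen forms the sheet of the basement membrane around each muscle fibre and capillary, and type VI collagen forms beaded filaments that connect both. Fibril-associated collagens sit on the surface of fibrils and at junctions such as that between muscle and tendon. In muscle most collagen is made by fibroblasts and other interstitial cells, and vessel cells and fibres contribute to the basement membrane. The Myl1-Cre driver acts in the fibres.

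The targeted gene separated the groups as labelled. Irf4 reads numbered 6, 0 and 2 in MI4KO, whereas each MI4OE library held at least 2864. Library totals ran from 18828605 to 29239585 expected counts, and 3 counts corresponded to between 0.101 and 0.148 TMM-scaled counts-per-million units (CPM). Skeletal muscle markers such as Ckm and Acta1 were abundant in every library, with a summed level of 174200 to 349100 CPM over 8 genes. Single libraries stood apart in slow-fibre and adipocyte markers. MI4OE replicate 1 had 6743 CPM over 9 slow-fibre markers, against 641 CPM or less elsewhere, and MI4KO replicate 3 had 966 CPM over 7 adipocyte markers, against 346 CPM or less elsewhere.

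Promoter windows are shown for the type IV gene pair, whose start sites lie head to head, for 4 of the 6 genes that passed an adjusted threshold in an alternative test (Col4a5 and Col11a1 are not shown), and for Col11a2, which was lower in MI4OE. Each window runs from 250 bases before to 50 bases after the RefSeq start on GRCm38.p6 and is written 5′ to 3′ in the direction of its gene. RefSeq windows were matched for 29 of the 36 members, in 32 windows. In the first pair capitals mark the 78 bases that the windows share, read from opposite strands, and the starts are 21 bases apart. With these starts the first bases of the Col4a1 and Col4a2 transcripts overlap, on opposite strands.
Col4a1 (chr8:11312777-11313076, minus strand): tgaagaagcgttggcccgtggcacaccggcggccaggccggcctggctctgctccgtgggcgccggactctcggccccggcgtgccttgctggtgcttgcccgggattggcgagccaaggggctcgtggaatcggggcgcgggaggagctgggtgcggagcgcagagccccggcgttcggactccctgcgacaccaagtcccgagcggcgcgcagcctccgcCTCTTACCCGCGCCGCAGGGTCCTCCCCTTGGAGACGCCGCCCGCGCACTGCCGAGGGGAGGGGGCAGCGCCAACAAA
Col4a2 (chr8:11312555-11312854, plus strand): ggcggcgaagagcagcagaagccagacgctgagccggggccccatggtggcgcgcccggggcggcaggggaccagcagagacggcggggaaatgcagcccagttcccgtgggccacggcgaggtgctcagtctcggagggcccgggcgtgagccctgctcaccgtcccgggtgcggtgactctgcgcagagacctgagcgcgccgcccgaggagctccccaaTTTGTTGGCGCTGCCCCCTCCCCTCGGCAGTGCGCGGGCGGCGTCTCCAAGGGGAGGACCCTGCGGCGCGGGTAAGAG
In the next windows capitals mark matches, on either strand, to the TATA box, the CCAAT box, the GC box or the core motif of IRF factors.
Col1a2 (chr6:4505368-4505667, plus strand): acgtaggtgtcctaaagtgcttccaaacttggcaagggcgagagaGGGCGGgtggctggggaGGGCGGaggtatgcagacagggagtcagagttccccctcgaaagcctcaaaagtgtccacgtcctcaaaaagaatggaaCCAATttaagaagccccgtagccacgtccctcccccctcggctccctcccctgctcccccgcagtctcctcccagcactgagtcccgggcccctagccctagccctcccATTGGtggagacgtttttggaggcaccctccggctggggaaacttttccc
Col6a1 (chr10:76725995-76726294, minus strand): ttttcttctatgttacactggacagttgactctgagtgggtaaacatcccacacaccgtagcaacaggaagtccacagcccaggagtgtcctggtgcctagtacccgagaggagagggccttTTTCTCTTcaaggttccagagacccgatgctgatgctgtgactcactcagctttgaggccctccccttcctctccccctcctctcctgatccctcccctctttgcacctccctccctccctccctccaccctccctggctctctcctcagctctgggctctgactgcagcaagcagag
Col6a2 (chr10:76623355-76623654, minus strand): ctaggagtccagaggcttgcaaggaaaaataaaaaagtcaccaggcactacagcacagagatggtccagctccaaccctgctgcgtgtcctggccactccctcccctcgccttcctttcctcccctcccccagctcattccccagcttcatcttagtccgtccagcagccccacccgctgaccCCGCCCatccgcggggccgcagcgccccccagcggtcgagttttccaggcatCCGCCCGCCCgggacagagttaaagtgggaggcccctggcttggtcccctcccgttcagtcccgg
Col20a1 (chr2:180986285-180986584, plus strand): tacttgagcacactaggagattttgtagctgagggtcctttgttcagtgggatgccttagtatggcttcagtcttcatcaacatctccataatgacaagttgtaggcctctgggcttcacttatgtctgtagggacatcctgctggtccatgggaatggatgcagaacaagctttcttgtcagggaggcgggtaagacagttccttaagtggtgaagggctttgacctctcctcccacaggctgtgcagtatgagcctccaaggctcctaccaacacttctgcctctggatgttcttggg
Col11a2 (chr17:34038888-34039187, plus strand): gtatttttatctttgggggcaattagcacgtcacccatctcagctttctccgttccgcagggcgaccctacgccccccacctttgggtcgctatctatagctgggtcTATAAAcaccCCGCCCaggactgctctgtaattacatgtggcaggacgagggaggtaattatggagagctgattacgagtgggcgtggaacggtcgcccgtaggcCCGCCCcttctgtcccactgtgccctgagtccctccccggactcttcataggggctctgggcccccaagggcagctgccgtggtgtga
The GC box, searched as GGGCGG, was found in 19 of the 32 member windows (59.4%) and in 35.7% of all 32851 windows. Counted by gene, it was found for 18 of the 29 members with a window. The windows of all genes were not matched to the members for expression, and no motif difference was tested. The CCAAT letters were found in 31.2% of member windows and 37.4% of all windows. The TATA box, searched as TATAAA, was found in 9.38% of member windows and 13.6% of all windows. The IRF core, searched as AANNGAAA, was found in 6 member windows (18.8%), those of Col6a1, Col6a3, Col8a1, Col9a1, Col11a1 and Col19a1, and in 23.9% of all windows. The Col20a1 window held no match to any of the 4 patterns, and 2 of the GGGCGG matches in the Col6a2 window overlap. A match is a run of letters and not a measured binding site, and the absence of a match says only that these letters are not in the window.

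Collagen transcripts were a small share of the muscle RNA. Of all expected counts the 36 members took 0.0354%, 0.0401% and 0.0584% in MI4KO against 0.0863%, 0.0579% and 0.0767% in MI4OE, in replicate order as throughout. Their summed level was 457.5 ± 101 CPM (SD, n = 3) in MI4KO against 710 ± 115 CPM (SD, n = 3) in MI4OE, a ratio of 1.55. The groups of sums came close but did not overlap, since MI4KO replicate 3 had 574 CPM and MI4OE replicate 2 had 580.5 CPM. This gap depends on the scaling, because the unscaled shares of these libraries, 0.0584% and 0.0579%, lie in the opposite order. In bulk tissue fewer cells of a type and less RNA per cell cannot be told apart.

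Per transcript length the collagens of the interstitial fibrils and of the basement membrane led. In transcripts-per-million units (TPM), which adjust for length, Col3a1, which makes the thinner reticular fibrils, took 12.1% to 14.7% of the collagen total in a library. Col4a1 and Col4a2, the ubiquitous chains of type IV, took 11.8% to 15.3% and 11.3% to 13.7%. Col1a1 and Col1a2, the chains of type I, took 8.93% to 11.04% and 8.35% to 10.51%. The shares of Col3a1, Col4a1 and Col4a2 overlapped and in every library lay above those of Col1a1 and Col1a2. The shares of Col1a1 and Col1a2 overlapped with each other. Col6a2 and Col6a1 followed with mean shares of 9.21% and 8.71%, and Col15a1 and Col22a1 with 3.84% and 3.46%. At the other end Col11a1 and Col4a6 had mean shares of 0.0454% and 0.0297%.

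**Figure D1:**
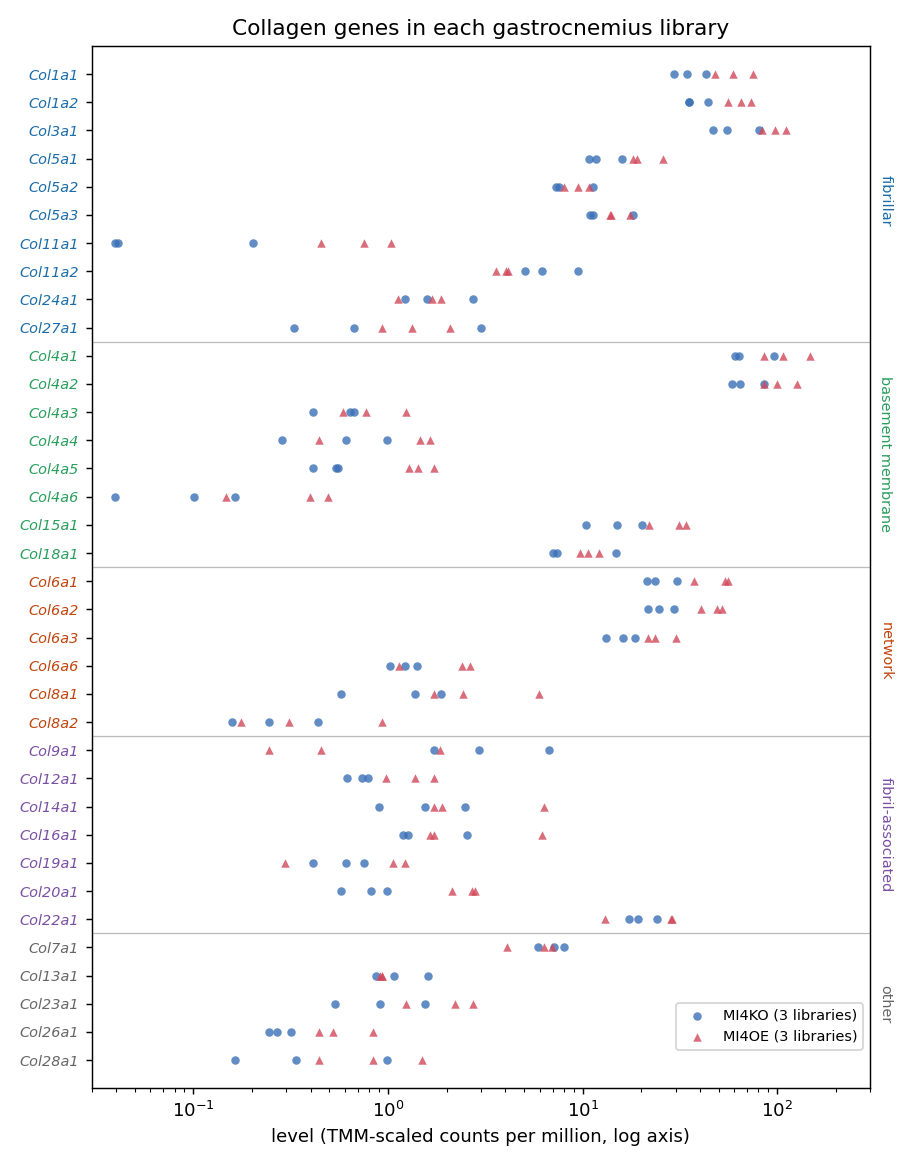
Level of each of the 36 collagen genes in each library, in TMM-scaled CPM on a log axis, grouped by class. Circles are the 3 MI4KO libraries and triangles the 3 MI4OE libraries, and levels are not adjusted for transcript length, so only values within a row are comparable. For Col1a1, Col1a2, Col6a1, Col6a2, Col4a5, Col20a1 and Col11a1 every triangle lies to the right of every circle.

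Collagen genes tended to be higher in MI4OE, by modest factors. Of the 34 members with enough counts to be tested, 29 had a positive log2 fold change (MI4OE over MI4KO) against 50.0% of all 12660 genes tested. The median log2 fold change was 0.74 over the 34 members and -4.3e-05 over all genes tested. No member passed an adjusted p of 0.05 in edgeR's quasi-likelihood test, which called 0.0237% of all genes, and 18 members had an unadjusted p under 0.05 against 7.58% of all genes. DESeq2 called 4 members (0.877% of all genes), which were Col1a2, Col6a1, Col6a2 and Col20a1. The exact test of edgeR called 5 (0.853% of all genes), which were Col4a5, Col6a1, Col6a2, Col11a1 and Col20a1, and limma on log2 TPM called 0 members and 4 of all genes with either pseudocount. All 6 of these genes were higher in MI4OE. Among them Col11a1 had enough counts to be tested only through its MI4OE libraries, so its direction is no independent support.

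The study's own criterion, at least 1.5-fold at an unadjusted p of 0.05, was met by 17 of the 34 members, against 6.64% of all genes. Of these 15 were higher in MI4OE (4.36% of all genes) and 2, Col9a1 and Col11a2, were lower (2.28% of all genes). Their adjusted p by edgeR's quasi-likelihood test ran from 0.433 to 0.654. The libraries of the groups did not overlap for 14 members that were higher and 1 that was lower, against 7.38% and 5.48% of all genes. Col11a1 and Col26a1, counted among both the 15 and the 14, had fewer than 10 counts in each MI4KO library. They had enough counts to be tested only through the MI4OE libraries, so their place in these counts is no independent support. Only Col1a2, Col4a5, Col6a1, Col6a2, Col11a1, Col15a1 and Col20a1 met the criterion in all 6 fits that left out 1 library. The number meeting it was 11 without MI4OE replicate 3, 12 without MI4KO replicate 1, 13 without MI4KO replicate 3 and 14 without MI4OE replicate 1, and the median log2 fold change was then 0.62, 0.60, 0.86 and 0.70. Without MI4KO replicate 3 no member met the criterion as lower (0 instead of 2), and without any 1 MI4OE library 1 did.

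**Figure D2:**
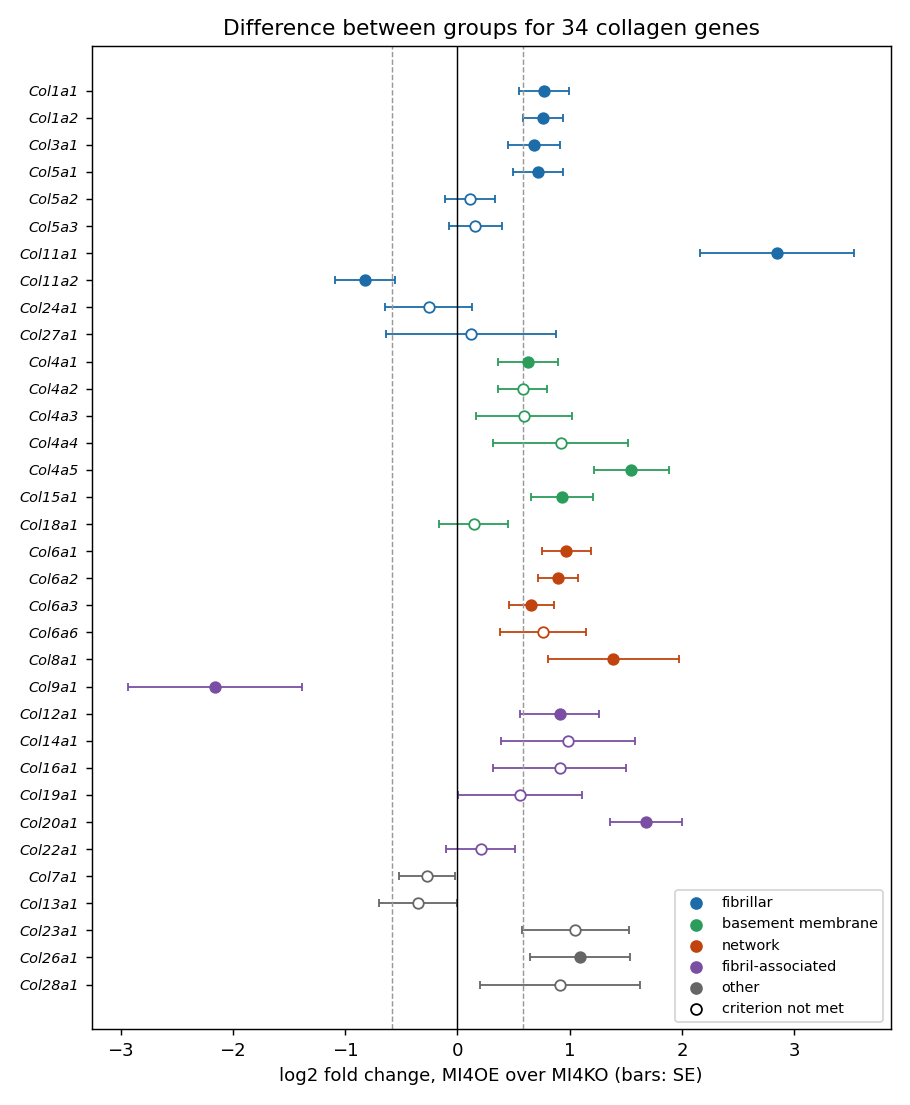
Log2 fold change, MI4OE over MI4KO, of the 34 tested collagen genes from edgeR's quasi-likelihood fit, with bars for the standard error and colours for the class. Filled points met the criterion used in the study, and dashed lines mark its limit of 1.5-fold. Most points lie to the right of 0, with Col11a1 highest at 2.85 and Col9a1 lowest at -2.16.

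Among the fibrillar collagens, the chains of types I and III and the first chain of type V were higher in MI4OE, whereas Col11a2 was lower. Of 10 tested members 5 met the criterion as higher, 1 met it as lower and 4 did not meet it. The 5 include Col11a1, which could be tested only through its MI4OE libraries. Here and for the classes below, the shares of all genes tested were 4.36% higher by the criterion, 2.28% lower by it and 50.0% with a positive log2 fold change. The class had a median log2 fold change of 0.42, which was 0.28 without MI4OE replicate 3, 0.64 without MI4KO replicate 3, and 0.16 over the members with a mean CPM of at least 1. Its summed level was 179.7 ± 40.3 CPM (SD, n = 3) in MI4KO against 276 ± 37.1 CPM (SD, n = 3) in MI4OE.

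Type I collagen, the main protein of thick fibrils, is assembled from the products of Col1a1 and Col1a2. Col1a1 was at 34.3, 29.4 and 42.9 CPM in the MI4KO libraries against 74.8, 47.6 and 59.1 CPM in the MI4OE libraries. Col1a2 was at 35.3, 35.4 and 44 CPM in MI4KO against 65.2, 55.5 and 73.6 CPM in MI4OE. For both genes the highest MI4KO library, replicate 3, stayed below the lowest MI4OE library, replicate 2. The log2 fold change was 0.77 ± 0.22 (SE) for Col1a1, with an unadjusted p of 0.00949, and 0.76 ± 0.18 (SE) for Col1a2, with an unadjusted p of 0.00282.

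Col3a1 was at 54.9, 46.95 and 80.4 CPM in MI4KO against 97.7, 83.7 and 111 CPM in MI4OE. The groups were separated by a narrow gap, again between MI4KO replicate 3 and MI4OE replicate 2. Its log2 fold change was 0.68 ± 0.24 (SE), with an unadjusted p of 0.021.

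Type V collagen lies inside type I fibrils and limits their width. Its genes were not alike. Col5a1 was at 10.7, 11.7 and 15.9 CPM in MI4KO against 18.2, 19.0 and 25.9 CPM in MI4OE, with no overlap and a log2 fold change of 0.72 ± 0.22 (SE). Col5a2 was at 7.53, 7.25 and 11.3 CPM in MI4KO against 9.45, 8.04 and 10.7 CPM in MI4OE. Col5a3 was at 11.3, 10.9 and 18.2 CPM in MI4KO against 13.97, 13.7 and 17.4 CPM in MI4OE. The libraries of the groups overlapped for Col5a2 and Col5a3, whose log2 fold changes were 0.11 ± 0.23 (SE) and 0.16 ± 0.24 (SE).

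Type XI collagen is a minor fibrillar collagen best known from cartilage, and its genes differed in opposite directions. Col11a1 had 1, 1 and 6 counts in MI4KO and 21, 13 and 17 counts in MI4OE. Summed over the libraries of each group, the ratio of its scaled counts was 7.08, with a 95% counting interval of 3.33 to 17.3 that leaves out the spread between libraries. Its fitted log2 fold change was 2.85 ± 0.69 (SE), with an unadjusted p of 0.00368. With fewer than 10 counts in each MI4KO library, Col11a1 became a member and could be tested only through its MI4OE libraries. Its fold change, p and place under the criterion are therefore no independent support for a difference. Without MI4KO replicate 3, which held 6 of the 8 MI4KO counts, the log2 fold change was 4.02. Col11a2 was at 6.18, 5.07 and 9.47 CPM in MI4KO against 4.03, 4.12 and 3.58 CPM in MI4OE. Every MI4OE library lay below every MI4KO library, and the log2 fold change was -0.82 ± 0.27 (SE), or -0.54 without MI4KO replicate 3. Among markers of cartilage cells, Sox9 was at 4.99, 0.792 and 0.94 CPM in MI4KO against 2.95, 1.12 and 1.46 CPM in MI4OE. Matn1 was at 0 in all libraries, Acan and Hapln1 were at 0 in every MI4KO library and averaged 0.0281 and 0.0328 CPM in MI4OE, and Lect1 averaged 0.0797 CPM in MI4KO and was at 0 in every MI4OE library. Col2a1, a cartilage collagen outside that list, had 10 counts in all.

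The remaining fibrillar genes, Col24a1 and Col27a1, overlapped between groups. Col24a1 ranged from 1.23 to 2.72 CPM in MI4KO and from 1.12 to 1.87 CPM in MI4OE. Col27a1 ranged from 0.328 to 3.01 CPM in MI4KO and from 0.935 to 2.08 CPM in MI4OE. The width of the Col27a1 range in MI4KO came from replicate 2 alone.

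**Figure D3:**
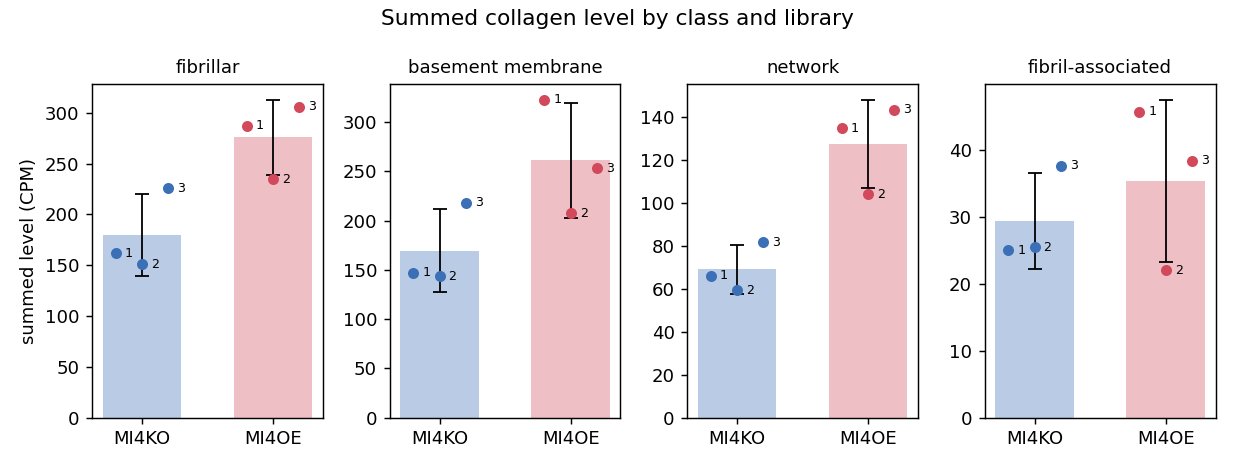
Summed level of the members of each of the 4 main collagen classes, in TMM-scaled CPM. Bars are means, error bars are SD over 3 libraries, and points are libraries numbered by replicate. Fibrillar and network sums do not overlap between groups, basement membrane sums overlap between MI4KO replicate 3 and MI4OE replicate 2, and the fibril-associated sum of MI4OE replicate 2 lies below every MI4KO library while those of replicates 1 and 3 lie above.

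Of the 7 tested basement membrane collagens, 3 met the criterion as higher in MI4OE. The other 4 had a positive log2 fold change and did not meet it. The class median log2 fold change was 0.63. Its summed level was 169.5 ± 42.2 CPM (SD, n = 3) in MI4KO against 261 ± 58.2 CPM (SD, n = 3) in MI4OE, with overlap.

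The neighbouring genes Col4a1 and Col4a2 were nearly alike in every library. Col4a1 was at 63.3, 60.7 and 95.6 CPM in MI4KO against 147, 85.4 and 107 CPM in MI4OE. Col4a2 was at 64.6, 58.4 and 85.6 CPM in MI4KO against 127, 85.9 and 99.5 CPM in MI4OE. MI4KO replicate 3 was above MI4OE replicate 2 for Col4a1 and almost level with it for Col4a2. Col4a1 met the criterion with a log2 fold change of 0.63 ± 0.27 (SE), which was 0.39 without MI4OE replicate 1. Col4a2 missed it at 1.496-fold, with a log2 fold change of 0.58 ± 0.22 (SE) and an unadjusted p of 0.031.

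Col4a5, a chain of the minor type IV networks, was at 0.409, 0.555 and 0.537 CPM in MI4KO against 1.43, 1.71 and 1.28 CPM in MI4OE. The groups were well apart on few reads, 40 counts in all of MI4KO and 107 in all of MI4OE. Its log2 fold change was 1.55 ± 0.33 (SE), with an unadjusted p of 0.00196. The pooled ratio of 2.97 had a 95% counting interval of 2.05 to 4.38.

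Col4a3 and Col4a4, which join Col4a5 in a network known from kidney, overlapped between groups. Their log2 fold changes were 0.59 ± 0.43 (SE) and 0.92 ± 0.61 (SE). Without MI4OE replicate 3 the value for Col4a3 was 0.24, and leaving out MI4KO replicate 1 or 2 gave 0.58 or 1.39 for Col4a4. Col4a6 averaged 0.101 CPM in MI4KO and 0.345 CPM in MI4OE and was too low to be tested.

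Types XV and XVIII are heparan or chondroitin sulfate-bearing collagens of vessel and muscle basement membranes. Col15a1 was at 10.4, 14.98 and 20.2 CPM in MI4KO against 34.04, 21.8 and 31.3 CPM in MI4OE. Its groups did not overlap, and the log2 fold change was 0.93 ± 0.28 (SE), with an unadjusted p of 0.0106. Col18a1, the source of endostatin, was at 7.37, 7.01 and 14.9 CPM in MI4KO against 12.2, 9.68 and 10.6 CPM in MI4OE. MI4KO replicate 3 was the highest of all libraries for Col18a1, whose log2 fold change was 0.15 ± 0.31 (SE).

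Of the 5 tested network collagens 4 met the criterion as higher in MI4OE, and all 5 had a positive log2 fold change. The median log2 fold change was 0.90. The summed level was 69.0 ± 11.5 CPM (SD, n = 3) in MI4KO against 127 ± 20.7 CPM (SD, n = 3) in MI4OE, a ratio of 1.84, without overlap.

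Type VI collagen, whose chains are mutated in Bethlem and Ullrich muscle diseases, made up nearly all of this sum. Col6a1 was at 23.4, 21.3 and 30.4 CPM in MI4KO against 53.97, 37.5 and 55.7 CPM in MI4OE. Col6a2 was at 24.6, 21.7 and 29.5 CPM in MI4KO against 49.0, 40.5 and 51.98 CPM in MI4OE. Every MI4OE library exceeded every MI4KO library for both genes. The log2 fold change was 0.97 ± 0.22 (SE) for Col6a1, with an unadjusted p of 0.00232, and 0.90 ± 0.18 (SE) for Col6a2, with an unadjusted p of 0.00115. In DESeq2 the adjusted p was 0.0217 for Col6a1 and 0.00766 for Col6a2, and in the exact test of edgeR it was 0.031 and 0.0184. Over the alternatives tried it ran from 0.0217 to 0.912 for Col6a1 and from 0.00766 to 0.912 for Col6a2.

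Col6a3, the long chain of the filament, was at 16.1, 13.1 and 18.6 CPM in MI4KO against 23.6, 21.7 and 30.2 CPM in MI4OE. It did not overlap either, with a log2 fold change of 0.66 ± 0.20 (SE). Col6a6, an alternative to the long chain, was at 1.02, 1.23 and 1.41 CPM in MI4KO against 1.13, 2.41 and 2.65 CPM in MI4OE. MI4OE replicate 1 lay among the MI4KO libraries for this gene, which missed the criterion.

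Type VIII collagen forms hexagonal lattices under endothelium. Col8a1 was at 0.573, 1.86 and 1.38 CPM in MI4KO against 5.95, 1.71 and 2.43 CPM in MI4OE. It met the criterion with a log2 fold change of 1.39 ± 0.58 (SE), but MI4OE replicate 1 stood far above the rest and the value was 0.70 without it. Col8a2 averaged 0.28 CPM in MI4KO and 0.473 CPM in MI4OE and was not tested.

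The summed level of the fibril-associated collagens overlapped between groups. It was 29.4 ± 7.19 CPM (SD, n = 3) in MI4KO against 35.5 ± 12.1 CPM (SD, n = 3) in MI4OE. Of 7 tested members 6 had a positive log2 fold change, 2 met the criterion as higher and 1, Col9a1, met it as lower. The median log2 fold change was 0.91, and 0.13 without MI4OE replicate 1.

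Col22a1, a collagen of the junction between muscle and tendon, carried most of the sum. It was at 19.3, 17.3 and 24.0 CPM in MI4KO against 28.3, 13.04 and 28.7 CPM in MI4OE. MI4OE replicate 2 was the lowest library and the other MI4OE libraries the highest, and the log2 fold change was 0.21 ± 0.31 (SE).

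Col20a1, a little-studied member of the class, was at 0.819, 0.991 and 0.571 CPM in MI4KO against 2.71, 2.80 and 2.12 CPM in MI4OE. The groups were far apart relative to their spread. The log2 fold change was 1.68 ± 0.32 (SE), with an unadjusted p of 0.001, the smallest among the members. Its adjusted p was 0.433 in edgeR's quasi-likelihood test. DESeq2 gave an adjusted p of 0.00545 and the edgeR exact test 0.00444, and the alternatives together spanned 0.00444 to 0.912.

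Col9a1, a partner of cartilage type II fibrils, was at 1.72, 2.93 and 6.75 CPM in MI4KO against 0.246, 0.454 and 1.85 CPM in MI4OE. MI4OE replicate 3 lay just above the lowest MI4KO library, so the groups overlapped. The log2 fold change was -2.16 ± 0.77 (SE). It was -1.46 without MI4KO replicate 3 and -3.40 without MI4OE replicate 3. MI4KO replicate 3 had the highest adipocyte marker sum, and whether this bears on Col9a1 was not tested.

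Col12a1, found on fibrils of tendon and fascia, was at 0.614, 0.792 and 0.739 CPM in MI4KO against 1.72, 0.979 and 1.37 CPM in MI4OE. It met the criterion with no overlap, but in only 1 of the 6 fits without a library. Col14a1 and Col16a1 reached 6.30 and 6.20 CPM in MI4OE replicate 1 and stayed between 0.901 and 2.55 CPM in every other library. Their log2 fold changes were 0.99 ± 0.59 (SE) and 0.91 ± 0.60 (SE), and without that library they were 0.13 and -0.0039. Col19a1 ranged from 0.409 to 0.753 CPM in MI4KO and from 0.295 to 1.22 CPM in MI4OE.

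The other collagens, a mixed class of membrane-bound, anchoring and further types, showed no common direction. Col7a1, which forms anchoring fibrils, was at 7.12, 5.86 and 7.99 CPM in MI4KO against 4.08, 6.96 and 6.32 CPM in MI4OE, with overlap. Col13a1, a membrane collagen of the neuromuscular junction, ranged from 0.872 to 1.597 CPM in MI4KO and from 0.909 to 0.935 CPM in MI4OE. Col26a1 met the criterion on 22 and 42 counts, with a pooled ratio of 2.12 and a 95% counting interval of 1.24 to 3.73. It met the criterion in 0 of the 6 fits without a library. With fewer than 10 counts in each MI4KO library, it could be tested only through its MI4OE libraries, so this is no independent support. Col23a1 and Col28a1 overlapped between groups, with log2 fold changes of 1.05 ± 0.47 (SE) and 0.91 ± 0.71 (SE). Without MI4KO replicate 2 the value for Col28a1 was 1.86, and without MI4OE replicate 2 it was 0.36. Those replicates were also the highest of their groups in the summed Schwann cell markers, at 131 and 249 CPM, and whether these bear on Col28a1 was not tested.

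Chains that assemble together had overlapping ratios in the groups for types I and IV, whereas Col5a2 over Col5a1 and, within type VI, Col6a3 over Col6a1 separated the groups. The TPM ratio of 2 chains in the same library does not depend on how the libraries were scaled. Col5a2 over Col5a1 was 0.893, 0.788 and 0.906 in MI4KO and 0.666, 0.538 and 0.528 in MI4OE. Col6a3 over Col6a1 was 0.296, 0.267 and 0.263 in MI4KO and 0.190, 0.249 and 0.234 in MI4OE. Both ratios were lower in every MI4OE library than in any MI4KO library. The difference of group means, MI4OE minus MI4KO, was -0.59 and -0.30 on the log2 scale. Without MI4OE replicate 1 the difference for Col6a3 over Col6a1 was -0.19. The two-sided exact permutation p was 0.1 for each, the smallest that 3 against 3 libraries can give, and 0.3 after adjustment over the 6 ratios compared.

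The other ratios overlapped between groups. Col1a2 over Col1a1 was 0.99 ± 0.0924 (SD, n = 3) in MI4KO against 0.998 ± 0.179 (SD, n = 3) in MI4OE. Col4a2 over Col4a1, the head-to-head pair whose windows are printed above, was 0.988 ± 0.0644 (SD, n = 3) and 0.959 ± 0.075 (SD, n = 3). Col6a2 over Col6a1 was 1.08 ± 0.0444 (SD, n = 3) and 1.04 ± 0.099 (SD, n = 3). Col3a1 over Col1a1 was 1.42 ± 0.134 (SD, n = 3) and 1.39 ± 0.255 (SD, n = 3). Their exact permutation p ranged from 0.5 to 1.0, in a design that cannot show a difference at 0.05.

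**Figure D4:**
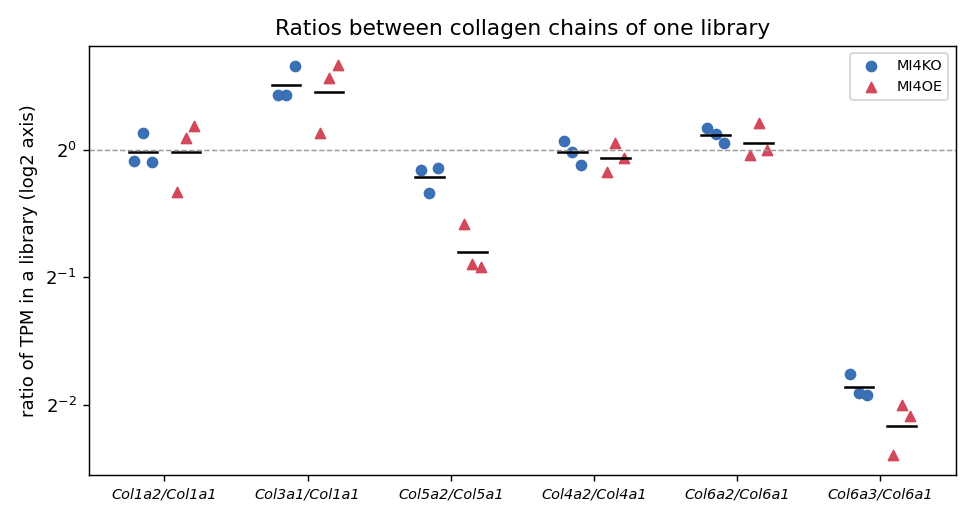
Ratio of the TPM of 2 collagen genes within each library, on a log2 axis, with 3 MI4KO libraries as circles, 3 MI4OE libraries as triangles and the geometric mean as a line. The groups separate for Col5a2/Col5a1 and Col6a3/Col6a1 and overlap for the other 4 ratios.

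The genes that modify, process and anchor collagen were compared in the same fit. Of 73 genes in 6 lists 67 were tested, of which 49 had a positive log2 fold change, 12 met the criterion as higher in MI4OE (4.36% of all genes), 1 met it as lower (2.28% of all genes) and 0 passed an adjusted p of 0.05 in edgeR's quasi-likelihood test. Their median log2 fold change was 0.27. The number meeting the criterion, 13, was 5 without MI4OE replicate 1, 6 without MI4KO replicate 1, 8 without MI4KO replicate 2, 20 without MI4KO replicate 3 and 21 without MI4OE replicate 2.

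Extracellular processing and crosslinking stood highest of the 6 lists, with a median log2 fold change of 0.71, and 11 of 12 tested genes had a positive log2 fold change. The 4 that met the criterion were Bmp1, which cleaves the C-propeptide, its enhancer Pcolce, and the lysyl oxidases Loxl2 and Loxl3. Loxl2 was at 4.34, 4.44 and 5.68 CPM in MI4KO against 9.25, 7.10 and 9.80 CPM in MI4OE, without overlap. Bmp1, at 5.35 ± 1.46 and 10.04 ± 3.21 CPM (SD, n = 3 each), and Pcolce, at 16.9 ± 4.38 and 28.0 ± 9.01 CPM (SD, n = 3 each), overlapped between groups. Lox, the founding crosslinking enzyme, was at 5.24, 2.46 and 5.21 CPM in MI4KO against 1.28, 3.15 and 2.34 CPM in MI4OE. Its log2 fold change was -0.92 ± 0.42 (SE), it did not meet the criterion, and the groups overlapped.

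For enzymes and chaperones inside the cell the medians were lower. The 13 tested enzymes of chain modification had a median of 0.26, and 2 met the criterion as higher, Leprel2 (a prolyl 3-hydroxylase) and Colgalt2 (a collagen galactosyltransferase). P4hb, the beta subunit of prolyl 4-hydroxylase, averaged 197 CPM in MI4KO and 187 CPM in MI4OE. Folding and export genes had a median of 0.19 over 12 tested genes. Among them Fkbp10, a collagen chaperone, met the criterion at 2.102 ± 0.465 CPM (SD, n = 3) in MI4KO against 5.21 ± 1.30 CPM (SD, n = 3) in MI4OE, whereas Serpinh1, the collagen chaperone HSP47, had a log2 fold change of 0.41 and did not.

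Partners of type IV collagen in the basement membrane had positive log2 fold changes in 11 of 11 genes, with a median of 0.45. Lamb1, a laminin chain, and Nid2, a nidogen that bridges laminin and collagen, met the criterion. Lamb1 was at 7.78, 9.07 and 8.97 CPM in MI4KO against 22.4, 15.2 and 16.4 CPM in MI4OE, with a log2 fold change of 1.06 ± 0.19 (SE). Nid2 was at 3.23 ± 1.28 CPM (SD, n = 3) in MI4KO against 7.09 ± 1.57 CPM (SD, n = 3) in MI4OE. Neither gene overlapped between groups.

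For the 6 tested collagen receptors the median log2 fold change was 0.19, with Itga11, an integrin chain of fibroblasts that binds type I collagen, as the 1 gene that met the criterion. The genes of the TGF-beta pathway, a known inducer of collagen synthesis, had no common direction, with a median of -0.14 and 6 of 13 positive. Tgfb1 and Smad7 met the criterion as higher and Smad3 as lower. Tgfb1 was at 5.34 ± 1.19 CPM (SD, n = 3) in MI4KO against 10.2 ± 4.21 CPM (SD, n = 3) in MI4OE, and Smad3 at 92.1 ± 20.8 CPM (SD, n = 3) and 59.5 ± 10.03 CPM (SD, n = 3).

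**Figure D5:**
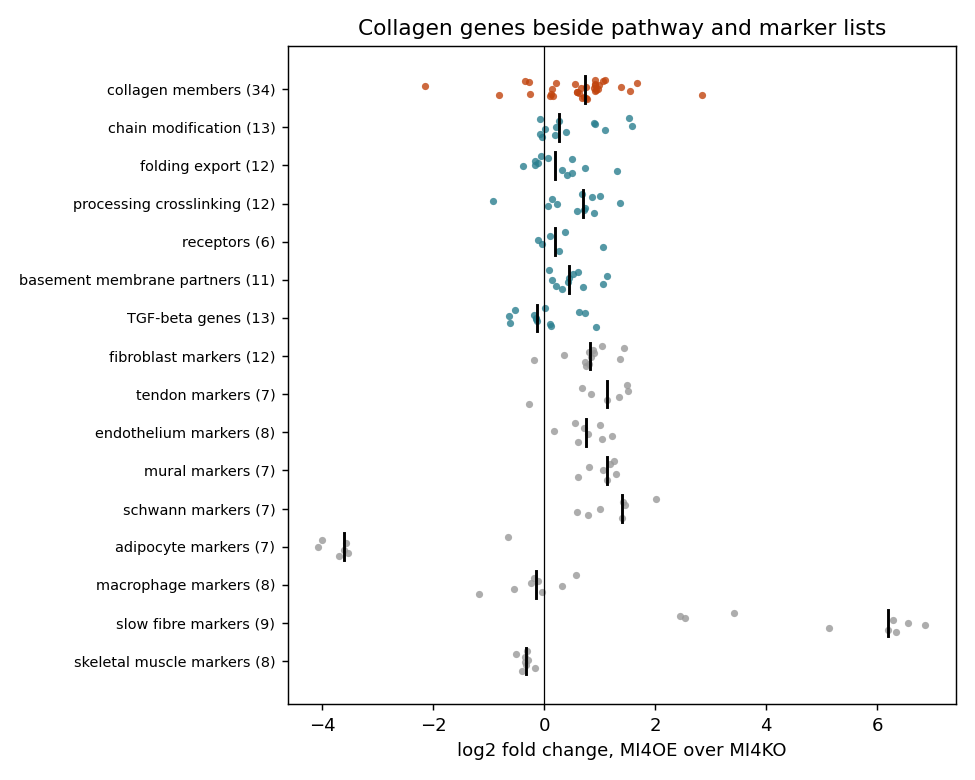
Log2 fold change, MI4OE over MI4KO, of each tested gene in the collagen set, in 6 lists of the collagen pathway and in 9 lists of cell type markers, with the median as a black line and the number of genes in brackets. Collagen, fibroblast, tendon, endothelium, mural and Schwann lists lie mostly to the right of 0, adipocyte markers lie to the left and slow-fibre markers far to the right.

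Markers of the cells that make collagen were examined beside the collagen genes, and their part in the result was not tested. The counts below stand beside 4.36% of all genes meeting the criterion as higher and 2.28% as lower. Of 12 fibroblast markers 11 had a positive log2 fold change and 6 met the criterion, among them Pdgfra and Dcn, and the median was 0.83. Their summed level was 632, 488 and 1044 CPM in MI4KO and 1041, 859 and 1143 CPM in MI4OE. The sums overlapped between groups, with MI4KO replicate 3 above MI4OE replicates 1 and 2. As in the collagen sum, MI4KO replicate 3 was the highest of its group and MI4OE replicate 2 the lowest of its group. For 23 of the 34 tested collagen genes MI4KO replicate 3 was the highest MI4KO library, against 30.8% of all genes tested. MI4OE replicate 3 was the highest MI4OE library for 14 of them, against 19.1% of all genes tested.

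Vessel markers were examined likewise. All 8 endothelial markers had a positive log2 fold change, with a median of 0.75 and 4 meeting the criterion, and summed levels of 103 to 170 CPM in MI4KO and 195 to 349 CPM in MI4OE. All 7 markers of mural cells did so too, with a median of 1.13 and 6 meeting the criterion, and sums of 74.6 to 108 CPM and 135 to 213.5 CPM. For these lists the sums did not overlap between groups, and their part in the levels of Col4a1, Col4a2, Col15a1, Col18a1 and Col8a1 was not tested.

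For 7 tested tendon markers the median log2 fold change was 1.13, but their sums overlapped at 27.4 to 72.4 CPM in MI4KO and 40.7 to 131 CPM in MI4OE, and only Fmod met the criterion. Schwann cell markers had a median of 1.39, with 7 of 7 positive, 0 meeting the criterion and sums of 35.7, 131 and 30.4 CPM in MI4KO against 104, 249 and 85.2 CPM in MI4OE, highest in replicate 2 of each group. Of 7 adipocyte markers 6 met the criterion as lower in MI4OE and Fabp4 did not, with a median of -3.62 and sums of 184 to 966 CPM and 114 to 266 CPM. Macrophage markers had a median of -0.15, with 1 of 8, Emr1, meeting the criterion as lower. Slow-fibre markers had a median of 6.20, with 7 of 9 meeting the criterion, but their sums were 6743, 41.5 and 641 CPM in MI4OE against 27.4 to 122 CPM in MI4KO, so MI4OE replicate 2 lay within the MI4KO range. The 8 general muscle markers had a median of -0.33, with 8 of 8 negative and 0 meeting the criterion. Of 5 cartilage markers only Sox9 was high enough to be tested, and its log2 fold change was -0.29.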

How the data were processed

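RNA-seq covered 3 MI4KO and 3 MI4OE gastrocnemius libraries, grouped by the genotype label. Stranded mRNA libraries were, per the labels, demultiplexed with bcl2fastq 2.17, and the authors mapped reads to a UCSC transcript set with Bowtie2 2.1.0 and quantified them with RSEM 1.2.15. The genome build is not given in the sources used here. The deposited expected counts are RSEM estimates, not normalized. The deposited TPM values are RSEM abundances adjusted for length. RSEM shares ambiguous reads among similar transcripts. The authors' tables of fold changes, p-values, false discovery rates and scaled levels were not used, including 12 columns of single samples.

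Rounded expected counts entered edgeR 4.0.16 (R 4.3.3, filterByExpr at 10 counts and a total of 15, TMM scaling, glmQLFit and glmQLFTest at default settings, Benjamini-Hochberg adjustment over 12660 genes). CPM used TMM-scaled totals. Fold changes and standard errors come from this fit, and TPM served for shares and chain ratios. Ratios were tested with exact permutations (scipy 1.17.1). Alternatives were DESeq2 1.42.0, edgeR's exact test, limma 3.58.1 on log2(TPM + 1) and log2(TPM + 0.1), other scaling and filters, bias-adjusted deviances, a member minimum of 300 counts, the basement membrane class without Col15a1 and Col18a1, and leaving out each library. In simulated counts for 12660 genes of this comparison, edgeR's quasi-likelihood test recovered 92 of 100 changes of 4-fold and 23 of 100 of 2-fold, with 10 false calls. The exact test recovered 98 of 100 changes of 4-fold and 46 of 100 of 2-fold, with 28 false calls. DESeq2 recovered 97 of 100 and 52 of 100, with 34 false calls. Counting intervals (exact, 95%) and the level of 3 counts reflect counting error alone.

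Named genes were all members, the pathway genes past a call rule, some of the marker genes past one, and up to 3 of each list by mean CPM. The remaining marker genes past a call rule were counted but not named. Lox, Serpinh1, Ckm and the cartilage markers at or near 0 were named after their values were seen. The members, lists and tests were chosen with earlier results of these data known. Replicate numbers follow the order of deposition. Promoter sequences are from RefSeq, and the windows and motifs shown were chosen with the calls known.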

Additional observations from a re-analysis of the deposited data

How the results depend on the processing

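Of 34 tested collagen genes 29 kept their direction in each of the 15 alternatives that gave them a value, and 25 were higher in MI4OE in each. The number of collagen genes at an adjusted p of 0.05 was 0 in edgeR's quasi-likelihood test, 4 in DESeq2 and 5 in the exact test of edgeR, where all genes gave 111 and 108, and it was 0 in every fit without 1 library, where all genes gave 1 to 4. The number meeting the study's criterion was 11 collagen genes, 8 pathway genes and 468 genes in all with limma on log2(TPM + 1), and 11 to 16, 5 to 21 and 590 to 1314 without 1 library. The pseudocount of 1 TPM exceeds the level of most members and shrinks their fold changes, with a collagen median of 0.22 against 0.74 and a fibrillar median of 0.19 against 0.42. The median of the 5 other collagens turned to -0.27 with a mean CPM of at least 1. Without 1 library the log2 difference ran from -0.10 to 0.15 for Col1a2/Col1a1, from -0.15 to 0.11 for Col3a1/Col1a1 and from -0.10 to 0.012 for Col4a2/Col4a1, and the log2 fold change from -0.013 to 0.33 for Col5a2, -0.0039 to 1.34 for Col16a1, -0.054 to 0.57 for Col18a1, -0.48 to 0.12 for Col24a1 and -0.35 to 1.504 for Col27a1. The cause was not tested in any of these cases. No paired analysis was possible because the labels number no replicates, and the numbers used here are names in accession order. With 3 libraries a group, 2-fold differences are often missed, and members near 0.1 CPM rest on a few counts.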

Other observations

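Of the 36 collagen genes 31 had 1 transcript in the files and 5 had 2. For Col18a1, which has a long and a short transcript, the longer one of 5628 bases took 5.24% (95% Clopper-Pearson interval 2.31% to 9.28%), 20.1% (14.7% to 27.0%) and 24.9% (20.8% to 29.1%) of the gene's expected counts in MI4KO replicates 1, 2 and 3. In the MI4OE libraries it took 3.44% (1.67% to 6.78%), 13.2% (9.27% to 17.5%) and 7.57% (4.51% to 11.6%). The shares differed between MI4KO libraries by more than their counting intervals and overlapped between groups.

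For Col9a1 the longer transcript, of 3888 bases, took 22.7%, 19.3% and 7.10% of the expected counts in the MI4KO libraries and 0%, 0% and 11.3% in the MI4OE libraries. The zeros rest on 5 and 13 counts for the gene, and their intervals reach 52.2% and 24.7%, so no difference in transcript use was detectable at this depth. RSEM assigned these reads from short single-end sequences, and the shares are estimates.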
